A study of Rattus norvegicus with 6 samples.

Results

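The cadherins and protocadherins of rat nasal mucosa mesenchymal stem cells were described by RNA sequencing. Every gene with a symbol of the form Cdh, Pcdh, Fat or Dchs followed by its number or array letters was taken, which gave 73 genes of the 20653 in the deposited tables. Of these 73 genes, 34 belong to the clustered protocadherin arrays (1 row for Pcdha, 18 for Pcdhb and 15 for Pcdhg) and 39 lie outside them. Stem cells named NPS-EMSC (3 libraries) were compared with stem cells named EMSC (3 libraries). Both were primary cells of SD rats, and the title of the series describes cells that overexpress neuropeptide S. The sources used here do not give the vector, say whether EMSC carried an empty vector, or name separate animals or cultures, so the p-values measure the spread between libraries, which may be technical. No treatment, time or age is labelled for either group.

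Cadherins are calcium-dependent adhesion proteins whose extracellular repeats bind cadherins on the next cell. The classical types I and II hold their cytoplasmic tail to the actin cytoskeleton through catenins. Fat and Dachsous are giant cadherins that bind each other across cell borders and act in planar polarity and growth control. Delta protocadherins are encoded by separate genes, while the alpha, beta and gamma protocadherins lie in tandem arrays in which each variable exon has its own promoter. In neurons the promoters of the arrays are chosen cell by cell with the help of CTCF and cohesin, and the gamma C genes stand apart from the other gamma genes in that choice. Mesenchymal cells are known for Cdh2 and Cdh11 and lack the epithelial cadherin Cdh1.

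Depth was even, at 39082245 to 39511976 reads on genes in NPS-EMSC and 39314098 to 40261205 in EMSC. The Nps gene itself had 93566, 77014 and 85916 reads in NPS-EMSC, against 0, 0 and 10 reads in EMSC, which matched the labels. Levels below are CPM, which are read counts scaled to the TMM-adjusted library total, or FPKM, the authors' deposited value per kilobase of gene length, wherever levels of different genes are compared. Fold changes are log2 values of NPS-EMSC over EMSC with their standard errors (SE), and a gene was called at an adjusted p under 0.05 in edgeR's quasi-likelihood test over 14505 genes with enough reads. Each adjusted p below comes from that test unless another tool or setting is named beside it. The comparison moved much of the transcriptome, and 59.3% of all tested genes were called, 29.7% as higher and 29.5% as lower in NPS-EMSC. The median log2 fold change over all tested genes was -0.00479. Mesenchymal markers summed to 22919 to 23977 CPM over 10 genes in NPS-EMSC and 22659 to 24764 CPM in EMSC, mostly Col1a1, Col1a2 and Vim. All 10 were called, 7 higher and 3 lower, among them Nt5e 4.45-fold and Thy1 2.92-fold higher and Pdgfra 1.93-fold lower.

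Most tested genes of the family fell in NPS-EMSC. Of the 73 genes, 59 had enough reads to be tested, and 37 of these fell, 3 rose and 19 did not pass. The 37 fallen genes are 62.7% of those tested, beside 29.5% of all tested genes, and the 3 that rose were Pcdhgc5, Cdh18 and Cdh13. Among the 59 tested genes, 23 fell by at least 2-fold, where the background was 8.3%, and 2 rose by at least 2-fold, where it was 6.48%. Values of the groups did not overlap for 42 genes that were lower in NPS-EMSC (background 32.3%) and for 4 that were higher (background 32.4%; 64.7% of all tested genes did not overlap in either direction). The median log2 fold change over the 59 genes was -0.85, and the range ran from -4.46 to 1.19. Only Cdh26 reached the read level of the filter in the libraries of 1 group alone. In these bulk libraries, fewer cells of a type and less RNA per cell cannot be told apart.

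Summed over all 73 genes, the family gave 318, 306 and 306 FPKM in NPS-EMSC and 469, 516 and 505 FPKM in EMSC. The sums averaged 310.0 ± 6.78 FPKM in NPS-EMSC and 496.7 ± 24.4 FPKM in EMSC (SD, n = 3 each). Cdh11, Fat1, Pcdhgc3, Pcdh18, Fat4 and Dchs1 held 81.0 to 82.2% of this sum in NPS-EMSC and 82.2 to 83.4% in EMSC. Few genes therefore set the sum, and they did not move alike: Cdh11 averaged 77.6 ± 1.53 FPKM in NPS-EMSC and 193.7 ± 11.4 FPKM in EMSC, whereas Fat1 averaged 72.1 ± 3.82 FPKM in NPS-EMSC and 75.2 ± 8.48 FPKM in EMSC (SD, n = 3 each). By mean FPKM, the order was Cdh11, Fat1, Pcdhgc3, Pcdh18, Dchs1 in NPS-EMSC, and Cdh11, Fat1, Pcdhgc3, Pcdh18, Fat4 in EMSC. The libraries of Cdh11 and Fat1 overlapped in NPS-EMSC and not in EMSC, where those of Pcdh18 and Fat4 did.

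**Figure D1:**
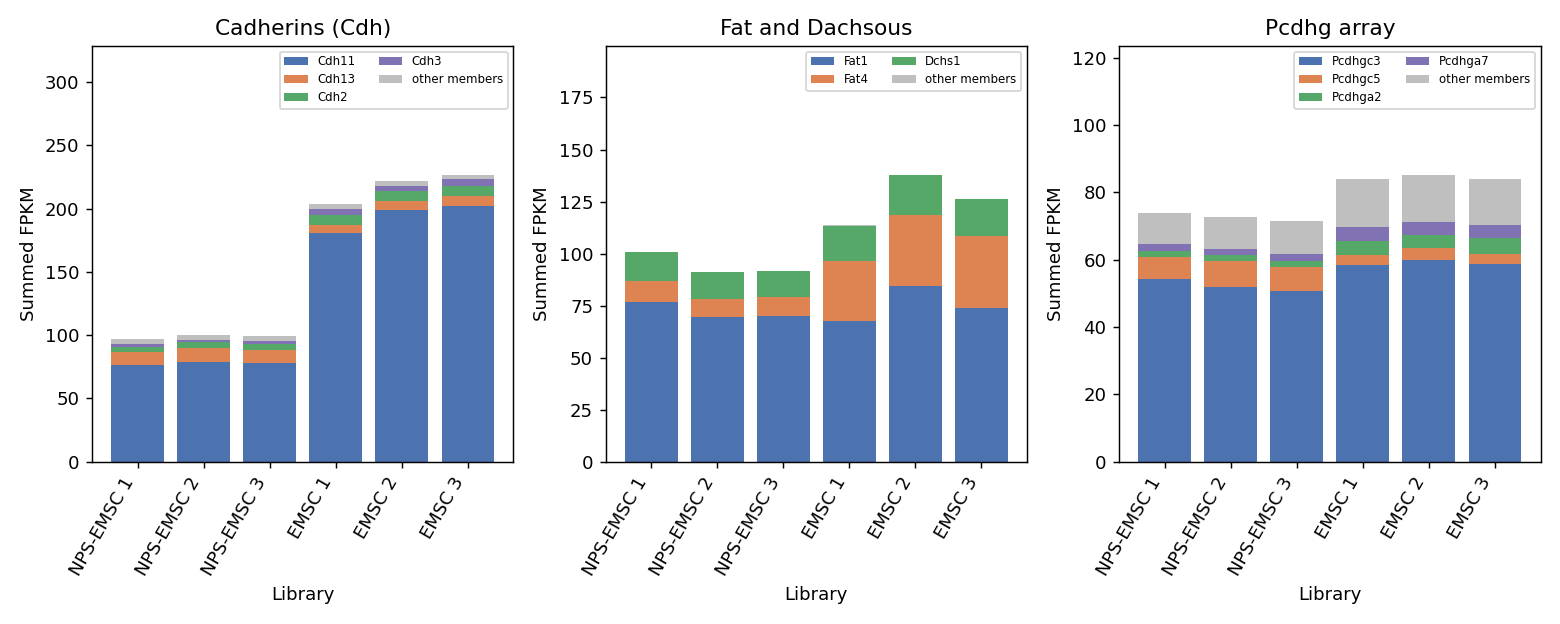
Summed FPKM per library (vertical axes) of the Cdh genes, of the Fat and Dachsous genes and of the Pcdhg array, each bar 1 library with NPS-EMSC left of EMSC and colours for the leading genes. In NPS-EMSC the Cdh11 band is shorter in every library (mean 77.6 FPKM, against 193.7 FPKM in EMSC) and the Fat4 band is narrow (9.34 FPKM, against 32.6 FPKM in EMSC), while the Pcdhgc3 band stays the main part of the gamma bars.

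Among the type I classical cadherins, N-cadherin and P-cadherin both fell. Cdh2, the N-cadherin of neural and mesenchymal junctions, had 21.0, 25.1 and 22.9 CPM in NPS-EMSC, against 36.5, 38.3 and 37.3 CPM in EMSC. Its groups did not overlap, and the log2 fold change was -0.70 (SE 0.08, adjusted p = 2.00e-08). Cdh3, the P-cadherin first described in placenta and also found in epithelia, had 6.79, 5.02 and 9.86 CPM in NPS-EMSC, against 14.6, 13.5 and 19.3 CPM in EMSC. It was lower in each NPS-EMSC library than in any EMSC library, with a log2 fold change of -1.12 (SE 0.23, adjusted p = 0.00181). Cdh15, the M-cadherin of skeletal muscle, stayed under 1 CPM in every library and was not called (log2 fold change 0.62, SE 0.57, adjusted p = 0.358). Cdh1, the E-cadherin that defines epithelia, had 10 reads in all 6 libraries together, 4 in NPS-EMSC and 6 in EMSC, too few to be tested.

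The type II cadherins were led by a fall of Cdh11, the OB-cadherin of osteoblasts and mesenchyme and the highest of all 73 genes per length. It had 414, 426 and 420 CPM in NPS-EMSC, against 938, 1054 and 1059 CPM in EMSC. The NPS-EMSC libraries lay close together and far below the EMSC libraries, and the log2 fold change was -1.28 (SE 0.05, adjusted p = 2.59e-17), or 2.42-fold lower. Cdh11 made up 78.4, 79.1 and 78.0% of the summed FPKM of the Cdh genes in NPS-EMSC, against 88.9, 89.6 and 89.1% in EMSC. It remained the leading Cdh gene of both groups.

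Cdh18, a type II cadherin known mainly from the nervous system, went the other way. It had 6.82, 8.35 and 6.63 CPM in NPS-EMSC, against 4.18, 3.14 and 2.15 CPM in EMSC, without overlap. The rise was 2.28-fold (log2 fold change 1.19, SE 0.20, adjusted p = 1.65e-05). Cdh10, a type II cadherin of brain, had 5.04, 4.89 and 4.83 CPM in NPS-EMSC, against 4.98, 7.0 and 4.86 CPM in EMSC, and was not called (log2 fold change -0.19, SE 0.17, adjusted p = 0.360). Cdh24 had 4.88, 4.78 and 5.96 CPM in NPS-EMSC, against 5.03, 3.93 and 4.01 CPM in EMSC, with groups that overlapped and no call (log2 fold change 0.27, SE 0.18, adjusted p = 0.202). Cdh6, the K-cadherin of kidney, stayed under 1 CPM and was not called (log2 fold change 1.05, SE 0.65, adjusted p = 0.167).

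The cadherins outside both classical types split. Cdh13, the T-cadherin, which is held in the membrane by a lipid anchor and has no cytoplasmic tail, had 36.8, 35.7 and 36.0 CPM in NPS-EMSC, against 22.3, 25.3 and 27.6 CPM in EMSC. All 3 NPS-EMSC libraries were above every EMSC library, and the rise was 1.44-fold (log2 fold change 0.53, SE 0.08, adjusted p = 2.64e-06). Cdh26 was nearly absent from NPS-EMSC, with 0, 0 and 4 reads, against 76, 88 and 58 reads in EMSC. It showed the most negative fitted log2 fold change of the family (-4.46, SE 0.54, adjusted p = 1.09e-07), a size that depends on the prior count, and it passed the filter through the EMSC libraries alone. Cdh23 and Pcdh15, the partners in the tip link of inner ear hair cells, were not called. Cdh23 had a log2 fold change of -0.64 (SE 0.43, adjusted p = 0.209), and Pcdh15 had 6.06, 4.6 and 4.55 CPM in NPS-EMSC, against 4.01, 3.64 and 4.21 CPM in EMSC (log2 fold change 0.36, SE 0.18, adjusted p = 0.0949). Both had groups that did not overlap. Cdh16, the kidney cadherin, was not called (log2 fold change 0.32, SE 0.45, adjusted p = 0.564).

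In the Fat and Dachsous class, the receptor Fat4 and its ligand Dchs1 fell, while Fat1 did not pass the test. Fat4 had 173, 144 and 150 CPM in NPS-EMSC, against 462, 560 and 557 CPM in EMSC. The highest NPS-EMSC library was far below the lowest EMSC library, and the fall was 3.38-fold (log2 fold change -1.76, SE 0.09, adjusted p = 5.28e-08). Dchs1 fell less, to 150, 139 and 133 CPM in NPS-EMSC, against 179, 203 and 186 CPM in EMSC (log2 fold change -0.43, SE 0.05, adjusted p = 2.13e-07). Fat1, a giant cadherin that links to actin dynamics and cell migration, had 1220, 1098 and 1111 CPM in NPS-EMSC, against 1025, 1309 and 1136 CPM in EMSC. Its NPS-EMSC libraries lay inside the range of the EMSC libraries (log2 fold change -0.02, SE 0.08, adjusted p = 0.861).

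The mix of Fat genes thus differed between the groups. The ratio of Fat4 to Fat1 in FPKM was 0.135, 0.125 and 0.129 in NPS-EMSC, against 0.429, 0.407 and 0.467 in EMSC. As a share of the summed FPKM of Fat and Dachsous genes, Fat4 held 10.2, 9.54 and 9.87% in NPS-EMSC, against 25.4, 24.9 and 27.3% in EMSC. Fat1 held 76.0, 76.3 and 76.7% in NPS-EMSC, against 59.4, 61.1 and 58.6% in EMSC. None of these 3 measures overlapped between the groups. Dchs2, a second Dachsous ligand, had 0.731, 1.34 and 0.95 CPM in NPS-EMSC, against 1.46, 2.55 and 1.40 CPM in EMSC, and was called as lower close to the threshold (log2 fold change -0.81, SE 0.35, adjusted p = 0.0474). That call was lost in DESeq2 (adjusted p = 0.0631), in limma-voom (0.0587), on log2(FPKM + 1) with no filter (0.154), and without NPS-EMSC replicate 1 (0.164), NPS-EMSC replicate 3 (0.108) or EMSC replicate 2 (0.315). Fat3 was not called (log2 fold change -0.73, SE 0.48, adjusted p = 0.199).

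**Figure D2:**
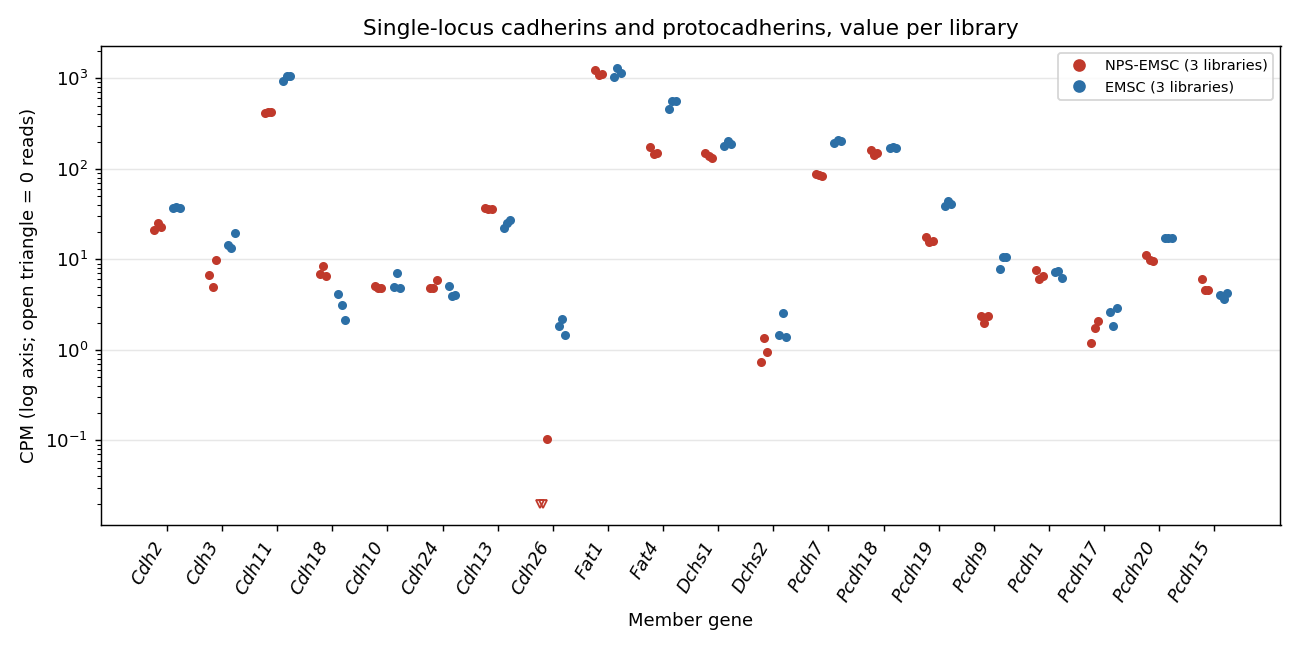
CPM on a log axis for the cadherins, Fat, Dachsous and single protocadherins with a group mean of at least 1 CPM, 1 point per library, NPS-EMSC left of EMSC for each gene; open triangles mark libraries with 0 reads. The NPS-EMSC points of Cdh11, Fat4, Pcdh7, Pcdh19 and Pcdh9 lie wholly under those of EMSC, those of Cdh18 and Cdh13 wholly above, and those of Fat1 lie within the EMSC range.

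Of the 6 tested delta protocadherins, 4 fell (66.7%, beside 29.5% of all tested genes), none rose and 2 did not pass; their median log2 fold change was -0.89. Pcdh7, also called NF-protocadherin, had 87.5, 86.1 and 84.2 CPM in NPS-EMSC, against 194, 208 and 204 CPM in EMSC (log2 fold change -1.23, SE 0.05, adjusted p = 1.86e-17). Pcdh19, whose mutation causes an epilepsy in humans, had 17.6, 15.7 and 16.0 CPM in NPS-EMSC, against 38.8, 43.9 and 40.8 CPM in EMSC (log2 fold change -1.32, SE 0.08, adjusted p = 2.23e-13). Each of these genes was tight within a group and well apart between groups. Pcdh9 showed the deepest fall of the class, to 2.38, 1.99 and 2.39 CPM in NPS-EMSC, against 7.89, 10.6 and 10.7 CPM in EMSC, which is 4.25-fold lower (log2 fold change -2.09, SE 0.17, adjusted p = 1.15e-10).

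Pcdh18, the highest of the delta protocadherins per length, fell only slightly. It had 162, 141 and 149 CPM in NPS-EMSC, against 169, 176 and 170 CPM in EMSC, and the log2 fold change was -0.19 (SE 0.05, adjusted p = 0.00219). Pcdh1 had 7.55, 6.02 and 6.63 CPM in NPS-EMSC, against 7.16, 7.35 and 6.21 CPM in EMSC, with groups that overlapped (log2 fold change -0.04, SE 0.15, adjusted p = 0.845). Pcdh17, which also overlapped, had 1.2, 1.76 and 2.11 CPM in NPS-EMSC, against 2.65, 1.86 and 2.93 CPM in EMSC (log2 fold change -0.54, SE 0.28, adjusted p = 0.101). Without EMSC replicate 2 Pcdh17 was called as lower (log2 fold change -0.71, adjusted p = 0.0458). Outside the delta class, Pcdh20 fell to 11.0, 9.88 and 9.63 CPM in NPS-EMSC, against 17.4, 17.1 and 17.2 CPM in EMSC (log2 fold change -0.76, SE 0.10, adjusted p = 8.85e-07).

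In the clustered arrays, where all 34 genes were tested, 25 fell, 1 rose and 8 did not pass. The 25 fallen genes are 73.5% of the arrays, beside 48.0% (12 of 25) among the tested genes outside them and 29.5% of all tested genes; the difference between the arrays and the other members was not tested. The median log2 fold change was -1.01 in the arrays and -0.54 outside them. Without the gamma C genes, the other 32 clustered genes had 24 falls and no rise, and their sum was 113, 113 and 114 CPM in NPS-EMSC, against 212, 223 and 213 CPM in EMSC. Beta and gamma genes are close copies of each other, gamma transcripts share their constant exons, and the sources used here do not say how reads that match several genes were counted, so the split of reads between neighbours is uncertain.

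The promoters of the arrays are shown because each variable exon has its own, and because 1 gene of these arrays rose while 25 fell. Clustered protocadherin promoters are known for a conserved sequence element with the core CGCT, near which CTCF binds. Windows of 28 bases around CGCT are given for 8 clustered genes that fell. Genes that did not pass carry CGCT as well, among them Pcdhb2, Pcdhga9 and Pcdhga11, and are not shown. The windows run 5′ to 3′ from RefSeq promoters of assembly GRCr8, all on the plus strand, with the core in capitals. The Pcdha4 row may hold several alpha genes, so its fall cannot be assigned to the promoter shown. The Pcdhb14 window holds another CGCT, left in lower case, that begins at -73 from the gene's start. Its copy in capitals is that of the longer beta word. The windows of Pcdhga2, Pcdhga5 and Pcdhga12 each also hold CGCT on the opposite strand, which reads agcg in lower case. The last entry is the whole 300-base promoter of Pcdhgc5, the clustered gene that rose.
Pcdha4 (chr18:28876962-28876989): gagccacatggtgtCGCTctttaccgta
Pcdhb10 (chr18:29391779-29391806): gggacgcgtggtggCGCTgtctactaag
Pcdhb14 (chr18:29431810-29431837): agaacgcttggtggCGCTgcaggctaag
Pcdhb19 (chr18:29478765-29478792): aagacacatggtggCGCTgcaggataat
Pcdhga2 (chr18:29745084-29745111): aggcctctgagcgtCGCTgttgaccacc
Pcdhga5 (chr18:29770904-29770931): aggactctaagcgtCGCTgttcaccaga
Pcdhga12 (chr18:29843863-29843890): cggactctgagcgcCGCTgttcacccac
Pcdhgc3 (chr18:29884067-29884094): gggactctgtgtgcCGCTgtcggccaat
Pcdhgc5 (chr18:29898180-29898479): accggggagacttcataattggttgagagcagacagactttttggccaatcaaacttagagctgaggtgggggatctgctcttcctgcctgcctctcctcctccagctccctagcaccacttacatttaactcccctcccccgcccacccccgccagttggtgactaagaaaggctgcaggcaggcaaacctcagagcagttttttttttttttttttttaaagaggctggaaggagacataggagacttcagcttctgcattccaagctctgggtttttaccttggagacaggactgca

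A promoter entry of 300 bases (250 before and 50 after the gene's start) was found for 59 of the 73 genes, 31 of them in the arrays with 32 promoters. CGCT, on either strand, occurs in 26 of these 32 promoters, in 24 of 29 promoters of members outside the arrays and in 60.9% of the 33469 rat promoters, so the core alone separates little. The longer word GGTGGCGCTG occurs in 14 of 16 beta promoters, in none of the 15 gamma promoters and in 0.221% of all promoters. CTCTNNGNGNCGCT, where N is any base, occurs in 11 of 15 gamma promoters, in no beta promoter and in 0.123% of all promoters. Both longer words contain CGCT, were searched on both strands and were chosen after the promoters had been read. The beta word was copied from the promoter of Pcdhb19, and the gamma word from that of Pcdhga2 with the N places opened. Both genes are among those counted, so the frequency of each word in its own array is a description only. Of the 26 genes with CGCT, 19 fell, none rose and 7 did not pass. The beta word had 11 falls and 3 genes that did not pass among its 14 genes. For the gamma word these were 7 and 4 of 11. Among genes with a promoter entry that lack the word, 12 of 17 (beta word) and 16 of 20 (gamma word) fell. Over all 34 clustered genes 25 fell (73.5%), beside 29.5% of all tested genes. A link between the words and the calls was not tested. The 5 genes without CGCT were Pcdhb6l, Pcdhb16l, Pcdhga1 and Pcdhga4, which fell, and Pcdhgc5, which rose. The absence says only that these letters are not in this window.

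The alpha array has 1 row, Pcdha4, under which RefSeq lists the names of the other alpha genes as synonyms. The gene length behind its FPKM was 41194 bases, against 4718 bases for Pcdhga2. The row may therefore hold reads of several alpha genes, each with its own promoter. This row fell to 4.47, 4.32 and 3.36 CPM in NPS-EMSC, against 12.7, 13.2 and 12.9 CPM in EMSC (log2 fold change -1.67, SE 0.14, adjusted p = 1.58e-10). In the beta array 15 of 18 genes fell, none rose and 3 did not pass, and 11 of the falls were at least 2-fold. The falls are 83.3% of the array, beside 29.5% of all tested genes, and 17 of the 18 genes were lower in NPS-EMSC without overlap, beside 32.3% of all tested genes; the median log2 fold change was -1.09. Summed over the array, beta reads were 40.5, 41.3 and 40.3 CPM in NPS-EMSC, against 86.7, 98.2 and 87.0 CPM in EMSC.

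By smallest p, the leading beta genes were Pcdhb19, Pcdhb17 and Pcdhb12. Pcdhb19 had 6.90, 6.64 and 7.83 CPM in NPS-EMSC, against 20.7, 18.9 and 16.6 CPM in EMSC (log2 fold change -1.39, SE 0.12, adjusted p = 1.69e-10). Pcdhb17 had 9.19, 9.69 and 7.60 CPM in NPS-EMSC, against 16.6, 19.6 and 19.7 CPM in EMSC (log2 fold change -1.07, SE 0.12, adjusted p = 1.37e-08). Pcdhb12 had 1.23, 1.34 and 0.976 CPM in NPS-EMSC, against 3.96, 4.82 and 3.98 CPM in EMSC (log2 fold change -1.80, SE 0.24, adjusted p = 3.90e-07). All 3 genes had wide gaps between the groups. The called falls ran from -2.23 for Pcdhb9 to -0.66 for Pcdhb16l on the log2 scale. Those that did not pass were Pcdhb8 (log2 fold change -1.01, adjusted p = 0.0761), Pcdhb6 (-1.11, adjusted p = 0.0635) and Pcdhb2 (0.48, adjusted p = 0.472), all under 2 CPM in every library. Pcdhb2 was the beta gene whose groups overlapped.

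In the gamma array 9 of 15 genes fell (60%, beside 29.5% of all tested genes), 1 rose and 5 did not pass. The changes were not uniform along the array. In the order of the RefSeq table, the first 7 genes measured, Pcdhga1, Pcdhga2, Pcdhga3, Pcdhga4, Pcdhga5, Pcdhga7 and Pcdhga8, all fell, with log2 fold changes from -1.45 to -0.81 and a median of -1.07. Their sum was 37.3, 37.3 and 39.3 CPM in NPS-EMSC, against 77.7, 74.2 and 79.6 CPM in EMSC. The next 6, Pcdhga9, Pcdhga10, Pcdhgb7, Pcdhga11, Pcdhgb8 and Pcdhga12, had 1 fall and 5 genes that did not pass, with log2 fold changes from -0.42 to 0.36 and a median of -0.21. These 6 summed to 30.6, 30.2 and 30.7 CPM in NPS-EMSC, against 35.2, 37.2 and 34.0 CPM in EMSC. Among them, Pcdhga10, Pcdhgb7 and Pcdhga12 were lower in NPS-EMSC without overlap, as were 32.3% of all tested genes. The border between both stretches was set after the values were seen, so no test was made of it. As a description, Spearman's rho between place in the array and log2 fold change was 0.80 over the 15 gamma genes, which share libraries and constant exons, and 0.775 to 0.829 when each library was left out in turn. Over the 18 beta genes rho was 0.0733 and had no steady sign, with -0.0960 without NPS-EMSC replicate 1, 0.207 without NPS-EMSC replicate 3, -0.488 on log2(FPKM + 1) with no filter and 0.371 over the 15 genes that pass 1 CPM.

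Of the genes in the first stretch, Pcdhga2 led by p, with 8.49, 8.63 and 8.17 CPM in NPS-EMSC, against 19.5, 18.8 and 21.7 CPM in EMSC (log2 fold change -1.24, SE 0.11, adjusted p = 1.76e-10). Pcdhga1, the first gene of the array, had 2.79, 2.74 and 2.72 CPM in NPS-EMSC, against 8.06, 7.05 and 7.74 CPM in EMSC (log2 fold change -1.45, SE 0.17, adjusted p = 3.73e-08). Pcdhga7 had 9.69, 9.62 and 10.8 CPM in NPS-EMSC, against 18.5, 18.1 and 18.5 CPM in EMSC (log2 fold change -0.87, SE 0.10, adjusted p = 6.92e-08). None of them overlapped between the groups. Pcdhga12, the last gamma A gene and the 1 fall of the second stretch, fell by only 0.42 on the log2 scale (adjusted p = 0.0163) and did not pass without NPS-EMSC replicate 3 (0.0632) or EMSC replicate 2 (0.0534). Its promoter carries the longer gamma word, as that of Pcdhga2 does.

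At the end of the array, the gamma C genes differed from each other. Pcdhgc5 had 20.9, 23.8 and 22.4 CPM in NPS-EMSC, against 9.37, 10.5 and 9.39 CPM in EMSC, a 2.29-fold rise without overlap (log2 fold change 1.19, SE 0.10, adjusted p = 1.52e-10). Pcdhgc3, described here after its values were seen, had 256, 242 and 238 CPM in NPS-EMSC, against 262, 276 and 266 CPM in EMSC. Its log2 fold change was small, -0.13 (SE 0.04, adjusted p = 0.0162), and it did not pass without NPS-EMSC replicate 2 (0.05003), NPS-EMSC replicate 3 (0.115) or EMSC replicate 2 (0.0605). Per length, Pcdhgc3 was the leading gamma row in both groups, at 73.5, 71.6 and 71.1% of the summed gamma FPKM in NPS-EMSC, against 69.4, 70.5 and 69.8% in EMSC. Pcdhgc5 held 8.85, 10.3 and 9.84% in NPS-EMSC, against 3.64, 3.94 and 3.62% in EMSC. The share of Pcdhgc5 was higher in all 3 NPS-EMSC libraries than in any EMSC library.

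**Figure D3:**
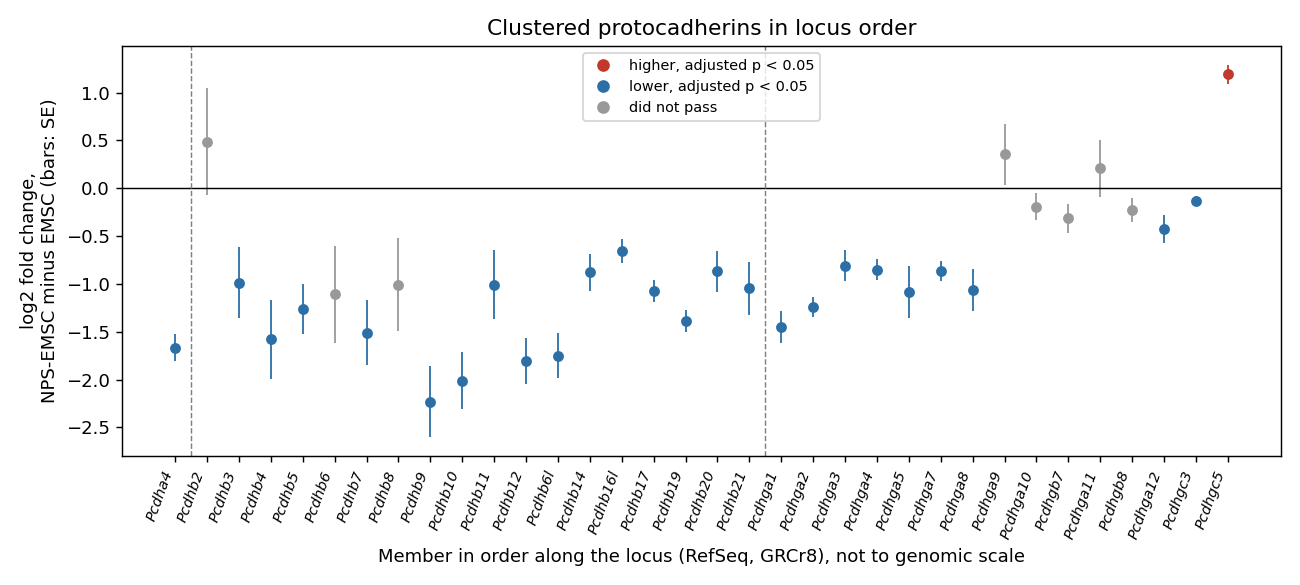
Log2 fold change of NPS-EMSC over EMSC (vertical axis, bars are SE) of the 34 clustered protocadherin genes in locus order, with dashed lines between the alpha, beta and gamma arrays and colours for genes that rose, fell or did not pass. The 7 genes from Pcdhga1 to Pcdhga8 lie between -1.45 and -0.81, the 6 from Pcdhga9 to Pcdhga12 between -0.42 and 0.36, and Pcdhgc5 lies alone at 1.19.

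**Figure D4:**
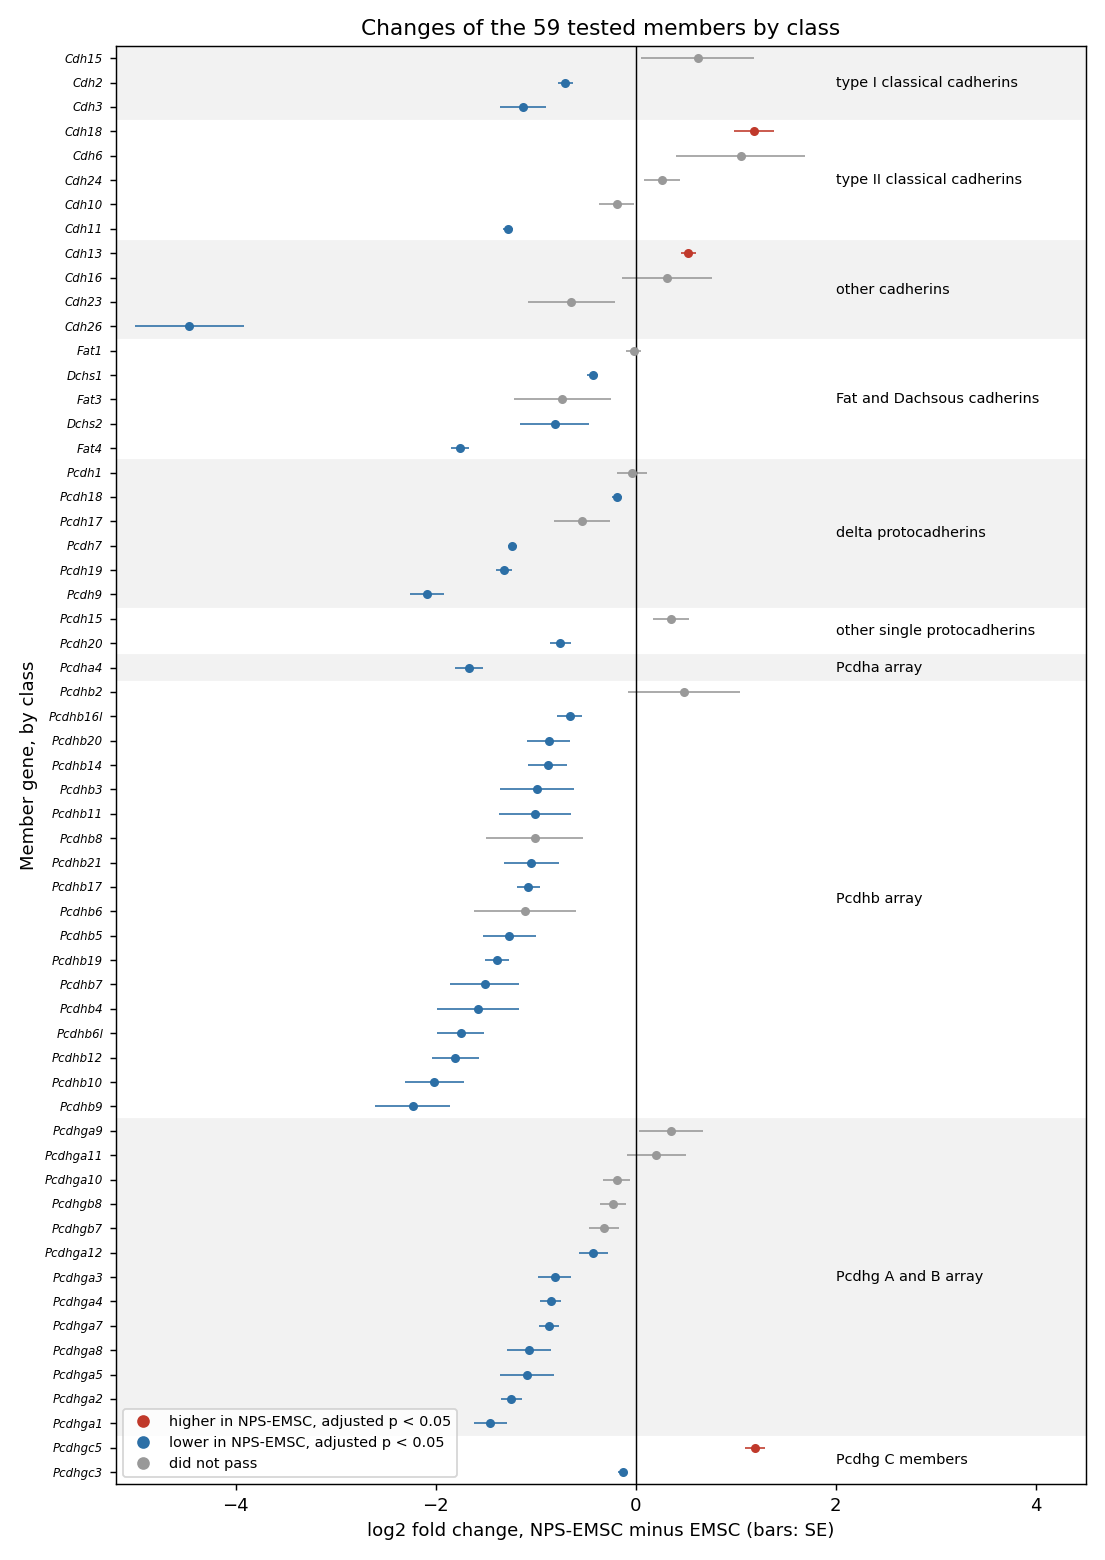
Log2 fold change of NPS-EMSC over EMSC (horizontal axis, bars are SE) of the 59 tested genes, grouped by class, with colours for genes that rose, fell or did not pass. The 37 falls occur in every class, and the 3 rises are Cdh18, Cdh13 and Pcdhgc5. Falls were 1 of 5 tested type II cadherins (20%) and 1 of 4 tested other cadherins (25%), beside 29.5% of all tested genes. The share of each remaining class is above 29.5%. Some of these are as small, with 1 fall of 1 in the Pcdha array and 1 of 2 among gamma C genes. Other single protocadherins also had 1 fall of 2. Classes of so few genes cannot show whether shares differ.

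The 14 untested genes had between 1 and 45 reads over all 6 libraries. They were Cdh22, Cdh5, Cdh20, Cdh1, Cdh19, Cdh12, Pcdh10, Cdh17, Pcdh8, Fat2, Cdh4, Pcdh12, Cdh8 and Pcdh11x, in rising order of reads. Among them are the defining cadherins of endothelium (Cdh5), of intestinal epithelium (Cdh17) and of the Schwann cell lineage (Cdh19). Cdh4, the R-cadherin of retina, had 14, 6 and 8 reads in NPS-EMSC and no read in EMSC. Its ratio was 9.79-fold when EMSC is set to the 3 counts that an empty group allows. That figure takes the NPS-EMSC reads as exact, so it is no firm lower bound. Cdh4 was called when no filter on low counts was used (log2 fold change 2.53, adjusted p = 0.00230). DESeq2 called it as well (log2 fold change 5.74, adjusted p = 0.00138), so the size depends on the tool. Cdh8, a type II cadherin of brain, had 4 reads in NPS-EMSC and 38 reads in EMSC, and was called as lower in the same settings (adjusted p = 0.0192 without the filter, 0.0272 by DESeq2).

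Some markers of other cell types moved between the groups, and their part in the results above was not tested. Each count of calls below stands beside 29.7% higher and 29.5% lower among all tested genes. The lists hold only 2 to 5 tested genes each, so no list was compared with these shares. Leukocyte markers summed to 7.55 to 9.36 CPM in NPS-EMSC, against 54.5 to 68.2 CPM in EMSC, and all 5 tested of 8 fell, with Lyz2 at a mean of 3.84 CPM in NPS-EMSC and 52.5 CPM in EMSC and Ptprc at a mean of 0.00862 CPM in NPS-EMSC and 0.774 CPM in EMSC. Schwann and olfactory ensheathing markers summed to 8.06 to 9.77 CPM in NPS-EMSC, against 31.7 to 34.3 CPM in EMSC, and 3 of 5 tested fell; Sox10 averaged 0.0516 CPM in NPS-EMSC and 0.0577 CPM in EMSC. Neuronal markers summed to 14.2 to 15.8 CPM in NPS-EMSC, against 52.3 to 57.3 CPM in EMSC, with 1 rise and 2 falls of 4 tested. Stmn2 made up most of that sum, at 13.6, 11.9 and 13.7 CPM in NPS-EMSC, against 52.7, 55.5 and 50.05 CPM in EMSC, and Tubb3, the rise, was 2.48-fold higher. Skeletal muscle markers summed to 10.2 to 13.5 CPM in NPS-EMSC, against 3.74 to 5.08 CPM in EMSC, with 3 rises of 5 tested, and Myh3 led at a mean of 5.59 CPM in NPS-EMSC and 0.240 CPM in EMSC. Epithelial markers summed to 10.4 to 13.7 CPM in NPS-EMSC, against 4.13 to 5.03 CPM in EMSC, with Krt8 and Krt18 as the 2 tested and both higher, and Epcam at 0.0345 CPM in NPS-EMSC and 0.0330 CPM in EMSC. Cldn3, Cldn4, Esrp1 and Grhl2 were at 0 in EMSC, and Krt5 and Krt14 were at 0 in NPS-EMSC. All of these were too low to be tested, with at most 18 reads in any library of the other group. Endothelial markers summed to 3.18 to 3.94 CPM in NPS-EMSC, against 3.91 to 5.12 CPM in EMSC, and none of 4 tested was called.

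The partners of these proteins were read from 7 lists, with 79 distinct genes tested. Of these, 19 (24.1%) rose and 39 (49.4%) fell, beside 29.7% and 29.5% of all tested genes, and the counts of each list below stand beside the same shares. Catenins and junction linkers had 6 rises, 6 falls and 7 genes that did not pass, or 31.6% in each direction, near the share of all tested genes. The median of that list was 0.01 on the log2 scale. Ctnnb1, the beta-catenin that binds classical cadherin tails, averaged 391 ± 18.9 CPM in NPS-EMSC and 565 ± 16.1 CPM in EMSC (log2 fold change -0.53, SE 0.05, adjusted p = 3.11e-10), while Ctnna1, alpha-catenin, was not called (log2 fold change 0.03, adjusted p = 0.566). Ablim1, an actin-binding protein, averaged 13.7 ± 1.2 CPM in NPS-EMSC and 3.52 ± 0.293 CPM in EMSC (log2 fold change 1.94, SE 0.14, adjusted p = 7.33e-12). Nectin2, an adhesion protein of adherens junctions, rose by 0.42 on the log2 scale. Desmosomal genes had 1 rise and 4 genes that did not pass, and the rise was that of Dsc2, a desmosomal cadherin, at 25.5 ± 1.80 CPM in NPS-EMSC and 7.94 ± 0.384 CPM in EMSC (log2 fold change 1.68, SE 0.10, adjusted p = 1.85e-13).

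Transcription factors known for switching cadherins in other cells had 2 rises, 6 falls and 1 gene that did not pass (median log2 fold change -0.48). Snai1, a repressor of Cdh1, averaged 36.7 ± 0.828 CPM in NPS-EMSC and 88.5 ± 3.97 CPM in EMSC (log2 fold change -1.27, SE 0.06, adjusted p = 3.87e-16). Snai2, its relative, averaged 3.65 ± 0.632 CPM in NPS-EMSC and 17.1 ± 0.916 CPM in EMSC (log2 fold change -2.21, SE 0.14, adjusted p = 4.16e-13), and Tcf4 fell by 0.69 on the log2 scale. The rises were those of Prrx1 (0.26) and Zeb1 (0.12), and Snai3 did not pass (log2 fold change 1.14, adjusted p = 0.0677). Partners of Fat and Dachsous had 2 rises, 7 falls and 1 gene that did not pass (median log2 fold change -0.38), led by Lix1l (-0.57), Fzd6 (-0.46) and Fzd3 (-1.21), the last pair being frizzled receptors of planar polarity.

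Known regulators of the protocadherin arrays had 2 rises, 6 falls and 5 genes that did not pass (median log2 fold change -0.16). Wapl, which releases cohesin from chromatin, averaged 158 ± 6.43 CPM in NPS-EMSC and 110 ± 0.891 CPM in EMSC (log2 fold change 0.52, SE 0.05, adjusted p = 5.38e-10). Smc3, a subunit of the cohesin ring, averaged 70.4 ± 2.21 CPM in NPS-EMSC and 107 ± 8.07 CPM in EMSC (log2 fold change -0.61, SE 0.06, adjusted p = 7.03e-10), and Stag1, another cohesin subunit, fell by 0.42 on the log2 scale. Rad21 was the other rise of the list (log2 fold change 0.14, SE 0.04, adjusted p = 0.00847). Nipbl did not pass (log2 fold change 0.02, adjusted p = 0.741). Ctcf, described here after its value was seen, averaged 52.6 ± 0.783 CPM in NPS-EMSC and 68.8 ± 5.19 CPM in EMSC (log2 fold change -0.39, SE 0.06, adjusted p = 3.26e-06). Genes of cadherin processing had 4 rises, 11 falls and 1 gene that did not pass (median log2 fold change -0.33). Tmtc1, an enzyme that mannosylates cadherins, averaged 18.1 ± 1.68 CPM in NPS-EMSC and 65.7 ± 4.95 CPM in EMSC (log2 fold change -1.86, SE 0.08, adjusted p = 9.04e-17), and the protease genes Pcsk6 (-1.28) and Adam10 (-0.50) fell as well. The 4 rises were those of Tmtc2 (0.57), Mmp14 (0.44), Psenen (0.25) and Adam17 (0.23).

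Cadherin superfamily genes outside the naming rule had 3 rises, 3 falls and 3 genes that did not pass, with a median log2 fold change of 0.53. Cdhr4, a cadherin-related gene, averaged 9.02 ± 0.591 CPM in NPS-EMSC and 0.627 ± 0.173 CPM in EMSC (log2 fold change 3.75, SE 0.21, adjusted p = 8.00e-14). Clstn1, a calsyntenin, fell by 0.51 and Ret, the receptor kinase with cadherin repeats, fell by 2.70 on the log2 scale.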

How the data were processed

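The authors deposited read counts per gene for 6 libraries, whole numbers that differ in total between libraries. They also deposited FPKM values, which are the same counts divided by a fixed length per gene and by the library total, so the FPKM table is no separate measurement. Tools listed by the submitters' processing notes, without roles, are HTSeq, HISAT2, StringTie, fastp, DESeq and R 3.2.0. The build, the strand setting and the handling of reads that match several genes were not given in the sources used here. All libraries were made alike (TRIzol extraction, VAHTS Universal V6 kit), per the labels' protocols.

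Counts were tested with edgeR 4.0.16 in R 4.3.3 (TMM, filterByExpr with a minimum count of 10 and a minimum total of 15, robust quasi-likelihood fit, prior count 2) and adjusted by the Benjamini-Hochberg method over all 14505 genes that passed. Each SE was derived from the F value, as the size of the log2 fold change over its square root. For genes outside the arrays, values are given in full where a group averaged at least 1 CPM. In each array and each partner list, up to 3 called genes by smallest p were named, and some others were added outside this rule. The genes and lists were chosen with earlier results of these data known, and the classes and the promoter words after the values were seen. All 73 symbols were found in the RefSeq table of GRCr8, used for array order and promoters. No 2 libraries agreed within sampling noise. Alternatives are other size factors (RLE, upper quartile), DESeq2 1.42.0, limma 3.58.1 (voom, and log2 FPKM with pseudocounts of 1 and 0.1), other filters, a stricter threshold, a replicate block and leaving out each library. For FPKM, the filter was 0.5 in 3 libraries.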

Additional observations from a re-analysis of the deposited data

How the results depend on the processing

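The count of fallen cadherin and protocadherin genes, 37 in the reported test, was 37 with RLE or upper-quartile factors, DESeq2, limma-voom and a filter of 1 CPM, and 38 with no filter. It was 32 at an adjusted p under 0.01, 36 on log2(FPKM + 1) with no filter, 27 on log2(FPKM + 1) and 26 on log2(FPKM + 0.1), where only 36 of the genes passed the FPKM filter. Leaving out 1 library gave 34 to 37. The count of risen genes was 3 to 4 throughout. Called genes shared with the reported test kept their direction in every setting. Over all genes the calls ran from 7121 to 8914 (8600 as reported; 7870 to 8341 without 1 library), and over the partner genes from 47 to 60 (58 as reported; 53 to 56 without 1 library). The median log2 fold change of all genes was -0.0382 with upper-quartile factors and -0.00122 with RLE factors, beside -0.00479 as reported.

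With the replicate number as a block, 37 genes fell and 3 rose, and all 40 called genes were called in both fits, with 8588 calls over all genes and 57 over the partners. Deviations from the group means correlated at -0.0526, 0.0675 and 0.0464 between same-numbered libraries. Differently numbered libraries gave -0.127 to 0.0874. No shared signal of the numbers was thus seen, but so few libraries cannot decide whether the numbers mark pairs. The block ended no call among the genes described.

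Fat1 and Pcdh1, neither of them called, changed sign when a library was left out, over ranges of -0.10 to 0.0791 for Fat1 and -0.12 to 0.0379 for Pcdh1. Among genes given only in counts, the call of Pcdhb3 was lost without NPS-EMSC replicate 1 (adjusted p = 0.0800), NPS-EMSC replicate 2 (0.0697) or EMSC replicate 2 (0.147), and that of Pcdhb11 without NPS-EMSC replicate 3 (0.104), EMSC replicate 1 (0.0674) or EMSC replicate 3 (0.0577). Falls were called for Pcdhb6 with limma-voom (0.0468) and without NPS-EMSC replicate 2 (0.0280), for Pcdhgb8 without NPS-EMSC replicate 3 (0.0440) and for Pcdhgb7 on log2(FPKM + 1) (0.0457) and without EMSC replicate 3 (0.0451). Depth limits the 14 untested genes and the low beta genes, for which a change of 2-fold can miss the threshold, as with Pcdhb8.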
